A study of Mus musculus with 6 samples.

Results

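Interferon-stimulated effector genes encode the antiviral and cell-autonomous defence proteins that cells make in response to interferon. Here 39 of them were followed in adrenal glands of wild-type (WT) and Armc5(-/-) (KO) mice: 33 type I interferon targets and 6 Gbp and Irg GTPases. Each gene was looked up by its symbol in a count table of 59699 loci, and every one of the 39 was found at 1 locus. The table joins overlapping or neighbouring genes into loci that carry several symbols, so 25 of the genes had a locus with 1 symbol and 14 shared one. A locus with 1 symbol can still overlap others, as those of Ifit1 and Dtx3l do. All 39 passed the count filter and were among the 21358 named loci tested.

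The groups were adrenal glands of female WT mice and female Armc5(-/-) mice, both on a mixed 129 sv X CD1 background and aged 30 weeks, with 3 libraries a group. Total RNA was depleted of ribosomal RNA and sequenced as pairs of 100-base reads with a directional kit. The labels give neither which part of Armc5 the null allele lacks nor whether each library came from 1 animal, so p-values measure the spread between these libraries, which may in part be technical. ARMC5 is an armadillo-repeat protein that serves as an adaptor of a cullin ubiquitin ligase, and its loss in people is a known cause of nodular enlargement of both adrenal glands.

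Type I interferons bind the receptor IFNAR1-IFNAR2, whose kinases JAK1 and TYK2 activate the complex ISGF3, of which STAT2 and IRF9 are parts. ISGF3 binds the interferon-stimulated response element (ISRE) in target promoters. Interferon gamma acts through its own receptor and the gamma-activated site (GAS) in target promoters, and it is the classical inducer of the Gbp and Irg GTPases. Many targets respond to both kinds of interferon, so membership in one class does not name the signal.

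Promoter windows were available for 30 of the 39 genes, from the RefSeq annotation of GRCm38.p6, each running from 250 bases before to 50 bases after a gene start. They were searched on both strands for the ISRE core, which is GAAA, any 2 bases and GAAA again, and for the GAS TTCNNNGAA, whose letters read the same on either strand. The ISRE core was present in 16 of the 30 genes (53.3%), in 11 of 25 type I targets and in all 5 GTPases with a window. Over all genes of the promoter table it was present in 1079 of 27025 (3.99%). The GAS was present in 6 of the 30 genes (20%), against 9.55% of all genes. A match of these letters is a description and was not tested for binding.

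The windows of some type I targets that held an ISRE core show how the matches are arranged. They do not stand for all type I targets, since others with a window, such as Irf7 and Ifi44, held no match. Each stretch is written 5′ to 3′ on the strand of its gene, with coordinates in GRCm38.p6, and capitals mark the bases of an ISRE core or GAS match on either strand.
Isg15 (chr4:156200846-156200925, minus strand): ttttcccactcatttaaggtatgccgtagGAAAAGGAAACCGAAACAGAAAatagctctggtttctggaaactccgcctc
Ifit1 (chr19:34640759-34640838, plus strand): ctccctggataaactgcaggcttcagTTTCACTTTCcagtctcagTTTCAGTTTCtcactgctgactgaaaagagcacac
Ifit3 (chr19:34583355-34583434, plus strand): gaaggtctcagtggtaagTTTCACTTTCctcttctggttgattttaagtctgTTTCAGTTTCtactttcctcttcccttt
Ifit3b (chr19:34607751-34607830, plus strand): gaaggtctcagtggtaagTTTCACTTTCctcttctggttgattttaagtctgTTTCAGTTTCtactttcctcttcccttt
Ifit1bl1 (chr19:34602028-34602107, minus strand): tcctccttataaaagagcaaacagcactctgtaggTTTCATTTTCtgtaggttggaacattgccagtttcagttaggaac
Oas1a (chr5:120907522-120907631, minus strand): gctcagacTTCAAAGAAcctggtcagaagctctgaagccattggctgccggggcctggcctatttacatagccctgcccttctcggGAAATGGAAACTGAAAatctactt
Bst2 (chr8:71537558-71537637, minus strand): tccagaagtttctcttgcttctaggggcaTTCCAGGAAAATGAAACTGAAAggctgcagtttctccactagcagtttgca
In Isg15, 3 ISRE core matches overlapped, beginning 78, 72 and 66 bases before the start. Ifit1, Ifit3 and Ifit3b each held 2 separate matches, and the 80-base stretches of Ifit3 and Ifit3b had 0 mismatches between them. Ifit1bl1, which lies between Ifit3 and Ifit3b on the opposite strand, also held an ISRE core match in this stretch, although it was the one member called lower in KO. In Oas1a a GAS lay upstream of 2 overlapping ISRE core matches, and in Bst2 a GAS overlapped the first of 2 overlapping ISRE core matches.

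The GTPase promoters are shown because all 5 with a window held the ISRE core, and some also a GAS.
Gbp7 (chr3:142530221-142530300, plus strand): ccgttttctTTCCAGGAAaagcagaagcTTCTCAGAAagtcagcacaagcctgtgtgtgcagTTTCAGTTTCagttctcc
Igtp (chr11:58199481-58199560, plus strand): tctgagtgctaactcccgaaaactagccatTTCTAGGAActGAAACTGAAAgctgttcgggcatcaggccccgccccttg
Irgm1 (chr11:48871403-48871482, minus strand): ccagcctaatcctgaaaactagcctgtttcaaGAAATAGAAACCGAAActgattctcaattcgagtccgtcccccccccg
Gbp7 had 2 GAS matches upstream of its ISRE core match, beginning 106 and 87 bases before the start, and Igtp had 1 of each. Irgm1 had 2 overlapping ISRE core matches and no GAS match.

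Oasl1 and Herc6 were the members that passed the test as higher in KO, and the 120 bases before their RefSeq starts are given for contrast. For these 2 genes nothing is in capitals, because neither motif occurred in the whole window.
Oasl1 (chr5:114923120-114923239, plus strand): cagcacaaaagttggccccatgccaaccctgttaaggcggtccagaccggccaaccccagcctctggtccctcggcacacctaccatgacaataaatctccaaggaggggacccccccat
Herc6 (chr6:57580872-57580991, plus strand): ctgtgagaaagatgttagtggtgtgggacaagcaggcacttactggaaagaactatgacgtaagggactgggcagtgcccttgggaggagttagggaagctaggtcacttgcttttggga
That these letters do not occur in the windows says nothing about which factors act on the genes. The Herc6 start used here lies inside the wider Herc6 locus of the count table.

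**Figure D1:**
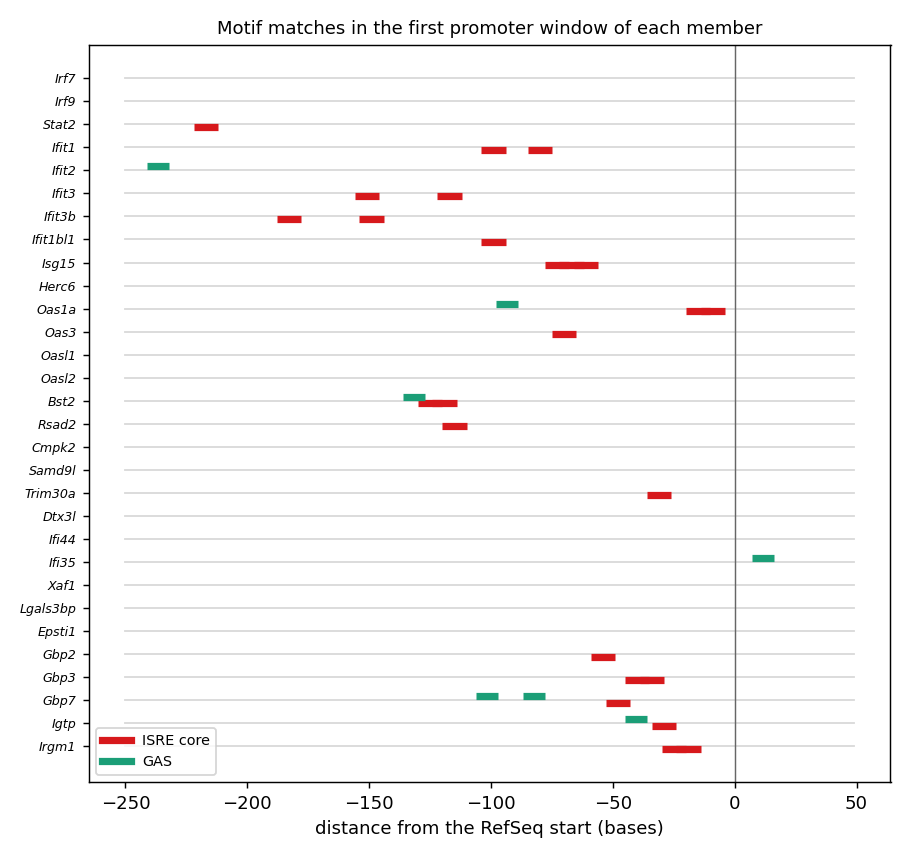
Positions of ISRE core (red) and GAS (green) matches in the first promoter window of each of 30 members, in bases from the RefSeq gene start, 1 row a gene. ISRE core matches were found in 16 of the 30 members with a window and GAS matches in 6.

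The libraries held between 70547288 and 130573434 counts. Armc5 itself had 2763, 3263 and 2233 counts in the WT libraries and 395, 269 and 473 in the KO libraries, so the genotype labels hold. Markers of steroid-producing cortex summed to between 22450 and 47236 CPM (reads of a locus scaled to library size) in every library and chromaffin markers to between 1741 and 4014 CPM, so both parts of the gland were represented. KO replicate 3 held hepatocyte transcripts (2909 CPM over 6 markers, at most 18.9 CPM elsewhere), and WT replicates 2 and 3 held more macrophage marker transcripts than the other libraries. In bulk tissue, fewer cells of a type and less RNA per cell cannot be told apart.

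Across the 39 genes, 37 had a positive log2 fold change (KO minus WT) and the median was 1.12, beside a median of -0.01 and 49.3% positive over all tested loci. With edgeR's quasi-likelihood test and Benjamini-Hochberg adjustment over all tested loci, 2 members were called higher at an adjusted p under 0.05, Herc6 and Oasl1, and 1 was called lower, Ifit1bl1. Over all tested loci the same test called 1.84%, made up of 1.41% higher and 0.431% lower. At an unadjusted p under 0.05, 31 members were higher and 1 lower (12.5% and 9.73% of all tested loci), and DESeq2 called 28 higher and 1 lower (7.49% of its loci higher). In 32 members the lowest KO library exceeded the highest WT library (16.3% of all loci), and in 22 the fold was at least 2 (8.33% of all loci). The same shares apply to the counts of each role and list below. Among the 25 genes whose locus carries 1 symbol the median log2 fold change was 1.59 and 24 were positive. Some of these loci overlap others, so this is not a set free of overlap.

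**Figure D2:**
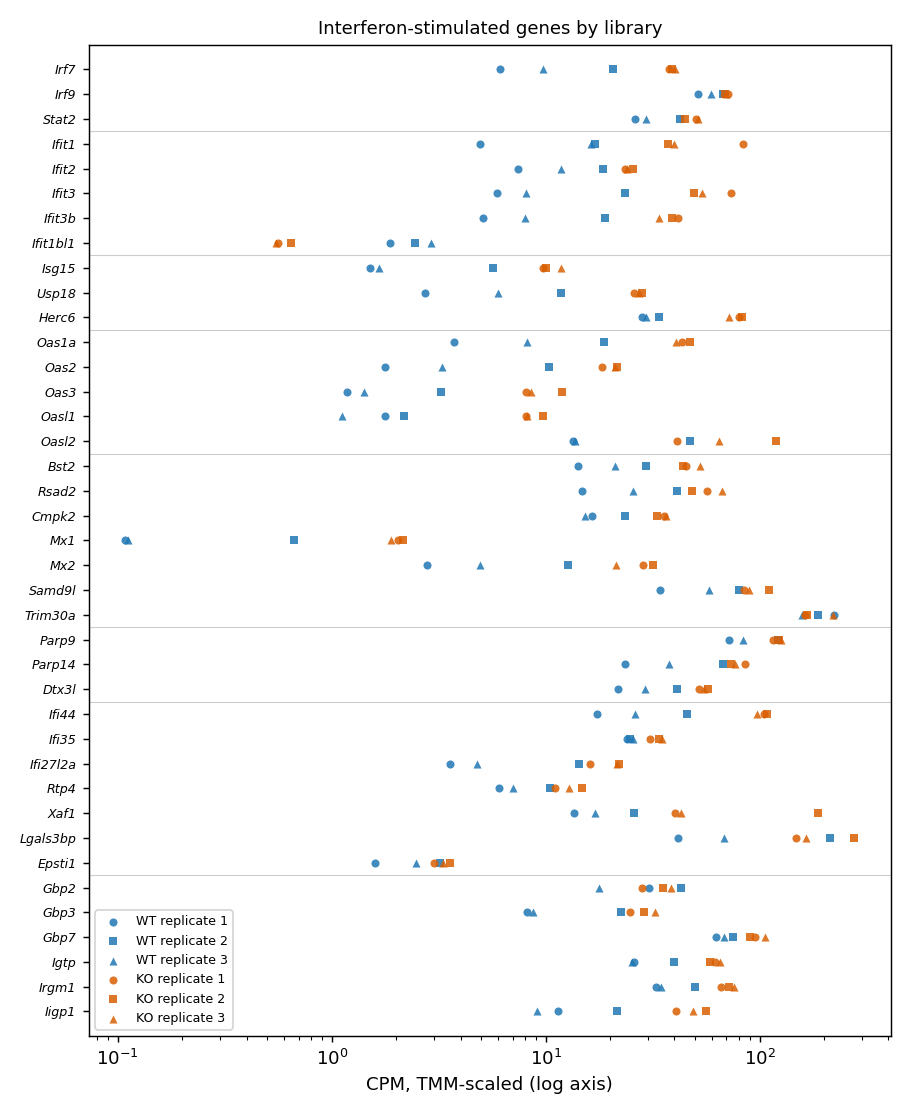
CPM of each member in each of the 6 libraries (log axis), WT and KO libraries in different colours, members ordered by role. In 32 of 39 members the 3 KO points lie to the right of all 3 WT points, Ifit1bl1 has its KO points to the left, and in most members the WT points are spread more widely than the KO points.

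The transcription factors of the response were represented by Stat2 and Irf9, partners in ISGF3, and by Irf7, which drives interferon alpha transcription and is itself induced by interferon. Stat2 had 2643, 5488 and 2351 counts in WT and 5547, 3411 and 6645 in KO, or 32.6 ± 8.68 and 48.8 ± 3.53 CPM (SD, n = 3). Irf9, whose locus also carries Rnf31, had 5225, 8681 and 4769 counts in WT and 7822, 5259 and 8995 in KO, or 59.4 ± 7.80 and 69.8 ± 0.945 CPM. In CPM, the KO libraries of both genes stood above the WT libraries without overlap, but WT replicate 2 came close to the KO range. Irf7 stood at 6.12, 20.6 and 9.77 CPM in WT and at 37.6, 39.1 and 40.4 CPM in KO, with no overlap. The log2 fold changes were 0.58 ± 0.19 (SE) for Stat2, 0.23 ± 0.11 for Irf9 and 1.68 ± 0.42 for Irf7. None passed edgeR's test (adjusted p = 0.157, 0.275 and 0.0961), whereas 2 of the 3 were higher at an unadjusted p under 0.05 and 1 with DESeq2.

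IFIT proteins bind foreign RNA and block its translation, and their genes form a cluster on chromosome 19. Ifit1 had 498, 2195 and 1302 counts in WT and 9203, 2840 and 5161 in KO, or 12.7 ± 6.76 and 53.5 ± 25.9 CPM. Ifit3 had 598, 3027 and 652 counts in WT and 8140, 3760 and 6989 in KO, or 12.5 ± 9.54 and 59.0 ± 12.9 CPM. KO replicate 1 was the highest library for both genes, and in CPM the groups did not overlap. The log2 fold changes were 2.07 ± 0.55 for Ifit1, 2.24 ± 0.53 for Ifit3, 1.83 ± 0.47 for Ifit3b and 0.95 ± 0.31 for Ifit2. The adjusted p of these 4 in edgeR's test ran from 0.0860 (Ifit3) to 0.152 (Ifit2), so none was called. All 4 were higher at an unadjusted p under 0.05 and with DESeq2. Ifit3 and Ifit3b are near-identical copies, and how the counting divided reads between them is uncertain. The Ifit1 locus as the table defines it spans the loci of the other IFIT members, so how reads were divided there is uncertain too.

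Ifit1bl1, an IFIT-like gene, moved the other way from its neighbours. It had 189, 316 and 234 counts in WT and 62, 49 and 71 in KO, or 2.41 ± 0.526 and 0.584 ± 0.0511 CPM. Every KO library lay below every WT library. It fell by 2.04 on the log2 scale (SE 0.24, edgeR's adjusted p = 0.0205), which is 4.12-fold lower. Its locus (chr19:34592891-34601956, minus strand, GRCm38) lies between Ifit3 (chr19:34582974-34588731) and Ifit3b (chr19:34607033-34613401), and within the Ifit1 locus as the table defines it (chr19:34419771-34669797), all 3 on the plus strand. No source used here says whether the counting used strand. The call held in 2 of the 6 fits that left out 1 library, with an adjusted p between 0.0269 and 0.118.

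The ISG15 system comprised the ubiquitin-like modifier Isg15, the protease Usp18, which removes ISG15 and also damps IFNAR2 signalling, and Herc6, the mouse ligase for ISG15. Herc6 had 2868, 4364 and 2375 counts in WT and 8827, 6341 and 9315 in KO, or 30.6 ± 2.86 and 78.3 ± 5.77 CPM. Its WT libraries lay within 1.19-fold of each other and its KO libraries within 1.16-fold, and the groups were far apart. It rose 2.56-fold (log2 fold change 1.36 ± 0.11, edgeR's adjusted p = 0.00878). Its locus (chr6:57476697-57664632, plus strand) also carries 4930533I22Rik and Gm45193.

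Usp18 had 276, 1527 and 478 counts in WT and 2864, 2147 and 3530 in KO, or 6.83 ± 4.61 and 27.1 ± 1.12 CPM. Isg15 stood at 1.51, 5.67 and 1.66 CPM in WT and at 9.73, 10.05 and 11.8 CPM in KO. In both genes WT replicate 2 was the highest WT library and still lay below every KO library. The log2 fold changes, 1.99 ± 0.49 for Usp18 and 1.83 ± 0.53 for Isg15, were larger than that of Herc6, but neither passed edgeR's test (adjusted p = 0.0929 and 0.128). All 3 genes of the ISG15 system were higher at an unadjusted p under 0.05 and with DESeq2. The Herc6 call held in 3 of the 6 fits that left out 1 library (adjusted p between 0.0161 and 0.0790).

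OAS enzymes sense double-stranded RNA and make oligoadenylates that activate RNase L, while the OAS-like protein OASL1 lacks that activity and, in mice, restrains translation of Irf7 mRNA. All 5 OAS family members had a log2 fold change above 1.5, with a median of 2.10. Oasl1 (chr5:114923240-114937915, plus strand) had 179, 282 and 90 counts in WT and 893, 738 and 1062 in KO, or 1.69 ± 0.535 and 8.66 ± 0.889 CPM. No KO library came near the WT range. It rose 5.11-fold (log2 fold change 2.35 ± 0.27, edgeR's adjusted p = 0.0204). The call held in 2 of the 6 fits that left out 1 library, with an adjusted p between 0.0218 and 0.107.

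Oas1a, which shares its locus with Oas1g, had 377, 2425 and 659 counts in WT and 4816, 3607 and 5257 in KO, or 10.2 ± 7.72 and 43.8 ± 3.36 CPM. Oasl2 had 1365, 6116 and 1097 counts in WT and 4548, 9057 and 8369 in KO, or 24.8 ± 19.5 and 74.9 ± 39.8 CPM. The groups were separate for Oas1a, whereas for Oasl2 WT replicate 2 (47.3 CPM) lay above KO replicate 1 (41.2 CPM). The log2 fold changes were 2.10 ± 0.55 for Oas1a, 1.59 ± 0.62 for Oasl2, 1.98 ± 0.62 for Oas2 and 2.28 ± 0.42 for Oas3. In edgeR's test Oas3, whose locus also carries Oas1e, had the lowest adjusted p of these 4 (0.0566), and Oasl2 the highest (0.206). All 5 OAS family members were higher at an unadjusted p under 0.05 and with DESeq2.

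The restriction factors act on different steps of a viral life cycle. BST2 (tetherin) holds virions at the cell surface, RSAD2 (viperin) makes a chain-terminating nucleotide, its gene neighbour CMPK2 is a nucleotide kinase, and the MX proteins are dynamin-like GTPases. Samd9l, which restrains translation and growth, had 3473, 10359 and 4666 counts in WT and 9335, 8435 and 11598 in KO, or 57.5 ± 22.9 and 94.9 ± 13.9 CPM. Trim30a had 22461, 24239 and 12710 counts in WT and 18058, 12646 and 28498 in KO, or 189 ± 31.7 and 183 ± 32.0 CPM. Samd9l did not overlap between groups in CPM, and Trim30a was spread alike in both. The Samd9l locus also carries Gm20559 and Gm43197. Trim30a was counted together with Trim5, Trim12c, Trim30c and Trim30d, so no single gene can be read from it.

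Mx1 was the least abundant member per length in WT, at 0.0781 CPM per kb (0.537 in KO, where Ifit1bl1 was lower at 0.258), and had the largest log2 fold change, 2.74 ± 0.73. It had 11, 86 and 9 counts in WT and 226, 165 and 245 in KO. Thus WT replicate 2 held most of the WT reads, and still lay well below the KO libraries. The other log2 fold changes were 1.99 ± 0.55 for Mx2, 1.13 ± 0.26 for Bst2, 1.07 ± 0.36 for Rsad2, 0.94 ± 0.17 for Cmpk2, 0.72 ± 0.30 for Samd9l and -0.05 ± 0.17 for Trim30a. None of the 7 restriction factors passed edgeR's test, while 5 were higher at an unadjusted p under 0.05 and 5 with DESeq2. The adjusted p was lowest for Cmpk2 (0.0567) and was 0.904 for Trim30a, whose direction changed with the scaling.

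PARP9 and the E3 ligase DTX3L form a complex, and PARP14 is a mono-ADP-ribosyltransferase encoded beside them on chromosome 16. Parp9 had 7283, 15802 and 6736 counts in WT and 12826, 9411 and 16259 in KO, or 92.7 ± 26.3 and 122 ± 4.97 CPM, at a locus that includes Kpna1. Parp14 had 2392, 8733 and 3015 counts in WT and 9415, 5602 and 9899 in KO, or 42.9 ± 22.5 and 78.4 ± 6.11 CPM. The groups were separate for Parp14, and for Parp9 WT replicate 2 lay within the KO range. The log2 fold changes were 0.39 ± 0.20 for Parp9, 0.87 ± 0.36 for Parp14 and 0.84 ± 0.22 for Dtx3l, and none passed edgeR's test (adjusted p = 0.294, 0.223 and 0.107), whereas 2 were higher at an unadjusted p under 0.05 and 1 with DESeq2. The Parp9 and Dtx3l loci overlap at their ends on opposite strands, and the Parp14 locus also carries Gm49730.

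The other type I targets have varied roles: IFI35 is a partner of NMI, RTP4 a chaperone of cell-surface receptors, XAF1 a binder of the caspase inhibitor XIAP and LGALS3BP a secreted glycoprotein. Ifi44 had 1756, 5915 and 2092 counts in WT and 11526, 8268 and 12645 in KO, or 29.7 ± 14.6 and 103 ± 5.44 CPM. Lgals3bp, the most abundant member per length, had 4198, 27687 and 5493 counts in WT and 16389, 21079 and 21322 in KO, or 108 ± 93.0 and 197 ± 69.7 CPM. Ifi44 was clearly separate, while the WT replicate 2 value of Lgals3bp (214 CPM) exceeded KO replicates 1 and 3 (148 and 165 CPM). Xaf1 stood at 13.6, 26.0 and 17.0 CPM in WT and at 40.3, 187 and 43.0 CPM in KO, so that KO replicate 2 stood far above the other KO libraries. The log2 fold changes were 2.26 ± 0.67 for Xaf1, 1.80 ± 0.34 for Ifi44, 1.39 ± 0.52 for Ifi27l2a, 0.86 ± 0.61 for Lgals3bp, 0.71 ± 0.24 for Rtp4, 0.44 ± 0.28 for Epsti1 and 0.43 ± 0.09 for Ifi35. Ifi27l2a was counted with Ifi27l2b, and Rtp4 with Gm45338. None passed edgeR's test, Ifi44 having the lowest adjusted p (0.0572) and Lgals3bp the highest (0.447), whereas 5 of the 7 were higher at an unadjusted p under 0.05 and 4 with DESeq2.

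GBPs and IRGs attack the vacuoles of intracellular pathogens, with Irgm1 and Igtp (Irgm3) as regulators of effector IRGs such as Iigp1. Gbp7 had 6316, 9706 and 5471 counts in WT and 10542, 6881 and 13684 in KO, or 68.5 ± 6.39 and 97.1 ± 7.86 CPM. Irgm1 had 3327, 6450 and 2774 counts in WT and 7267, 5511 and 9810 in KO, or 39.1 ± 9.40 and 71.3 ± 5.07 CPM. The groups did not overlap for either, nor for Gbp3, Igtp and Iigp1, KO being the higher. Gbp2, counted with Gbp2b, overlapped between groups, with 30.4, 43.0 and 17.8 CPM in WT and 28.3, 35.5 and 38.4 CPM in KO.

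The GTPase log2 fold changes were 1.80 ± 0.34 for Iigp1, 1.12 ± 0.41 for Gbp3, 1.03 ± 0.19 for Igtp (counted with Irgm2), 0.87 ± 0.18 for Irgm1, 0.50 ± 0.11 for Gbp7 and 0.17 ± 0.31 for Gbp2. No GTPase passed edgeR's test in either direction (adjusted p from 0.0565 for Igtp to 0.795 for Gbp2). At an unadjusted p under 0.05, 5 of the 6 were higher and 0 lower (12.5% and 9.73% of all tested loci). DESeq2 called 5 higher and 0 lower (7.49% of its loci higher). The Iigp1 locus also carries F830016B08Rik, Gm4951 and AC151990.1, and the Gbp7 locus also carries Gm43802.

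Set side by side, the 33 type I targets had a median log2 fold change of 1.36 (range -2.04 to 2.74) and the 6 GTPases one of 0.95 (range 0.17 to 1.80). The type I count was 2 called higher and 1 lower, and the GTPase count was 0 in both directions (1.41% higher and 0.431% lower over all tested loci). The lowest KO library exceeded the highest WT library in 27 of the 33 and in 5 of the 6 (16.3% of all tested loci). The ranges of the classes overlap, and the difference between their medians was not tested. Among tested loci outside the members the order was reversed. There the median was 0.54 over 41 type I target loci and 1.30 over 8 interferon GTPase loci, so the order depends on which genes are listed. By role the medians ran from 0.58 in the transcription factors, 0.84 in the PARP9-DTX3L group and 0.86 in the other type I targets, through 1.07 in the restriction factors, to 1.83 in both the IFIT family and the ISG15 system and 2.10 in the OAS family. Loci that also carry genes outside the members, such as Irf9 with Rnf31 and Parp9 with Kpna1, enter these role and class medians. What those genes add was not tested.

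The members differed between WT libraries far more than between KO libraries. Summed over the 39 genes, the WT libraries held 864, 1541 and 960 CPM and the KO libraries 1958, 2314 and 2058 CPM. WT replicate 2 was the highest WT library in 36 of the 39 members (36.1% of all tested loci), and WT replicate 1 the lowest in 33 (36.9%). The SD of log2 CPM was larger in WT than in KO in 37 members (62.0% of all loci), with a median SD of 0.64 in WT and 0.12 in KO. The ratio of the highest to the lowest WT library reached 6.13 in Mx1, 5.85 in Oas2, 5.17 in Lgals3bp and 5.04 in Oas1a, and was only 1.19 in Herc6 and 1.06 in Ifi35. Among KO libraries that ratio was at least 2 in 3 members, Xaf1 (4.65), Oasl2 (2.89) and Ifit1 (2.24), against 24 members among WT libraries.

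**Figure D3:**
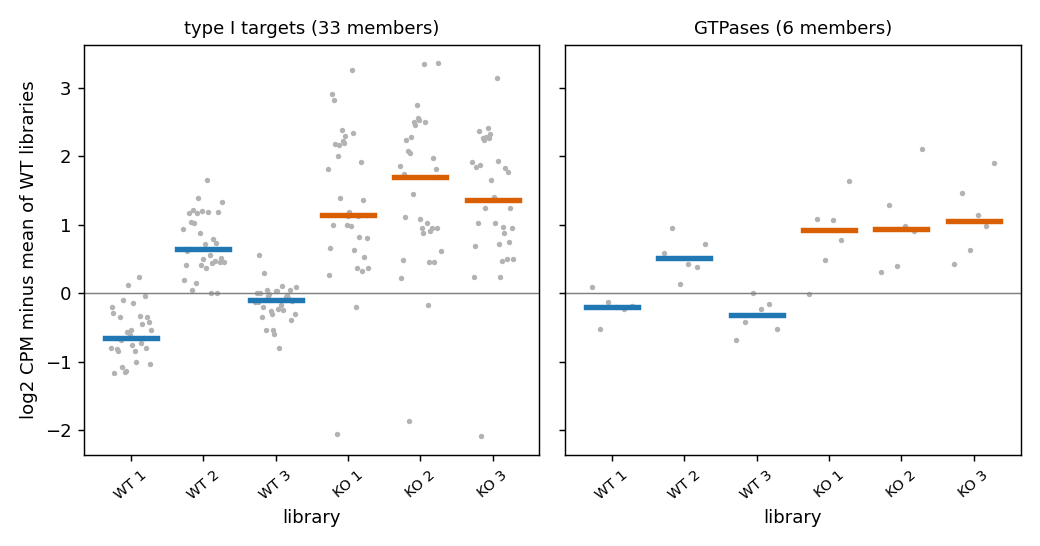
Log2 CPM minus the WT mean in each library, for the 33 type I targets (left) and the 6 GTPases (right). Grey dots are members and coloured bars are their medians, which for type I targets were -0.66, 0.65 and -0.11 in WT replicates 1 to 3 and 1.15, 1.71 and 1.36 in KO replicates 1 to 3.

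In both classes WT replicate 2 had the highest WT median. The type I medians of its log2 CPM minus the WT mean stood at 0.65, against -0.66 and -0.11 in the other WT libraries, and the GTPase medians at 0.51, against -0.20 and -0.33. Over all tested loci the library medians were 0.02 or less. TMM scaling holds such medians small, so they cannot show whether other loci share the ordering. WT replicate 2 was the highest WT library in 36.1% of all tested loci. Without WT replicate 2, edgeR called 25 members higher, of them 21 type I targets and 4 GTPases (Gbp3, Igtp, Irgm1 and Iigp1), and 1 lower, Ifit1bl1, beside 2.42% of all tested loci called higher. In that fit the log2 fold change was 4.21 for Mx1 (adjusted p = 0.0142), 2.75 for Isg15 (0.0142), 3.09 for Ifit3 (0.0188) and 2.32 for Irf7 (0.0209). This fit is singled out because WT replicate 2 was the highest WT library in 36 of the 39 members. Leaving it out raises their fold changes by that selection, so its calls and p-values are no separate support for a change. Leaving out WT replicate 3, KO replicate 1 or KO replicate 2 left 0 members called, and 20, 15 and 22 of all tested loci, so that few loci of any kind were called in those fits. No label marks WT replicate 2 as different from the other WT libraries.

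**Figure D4:**
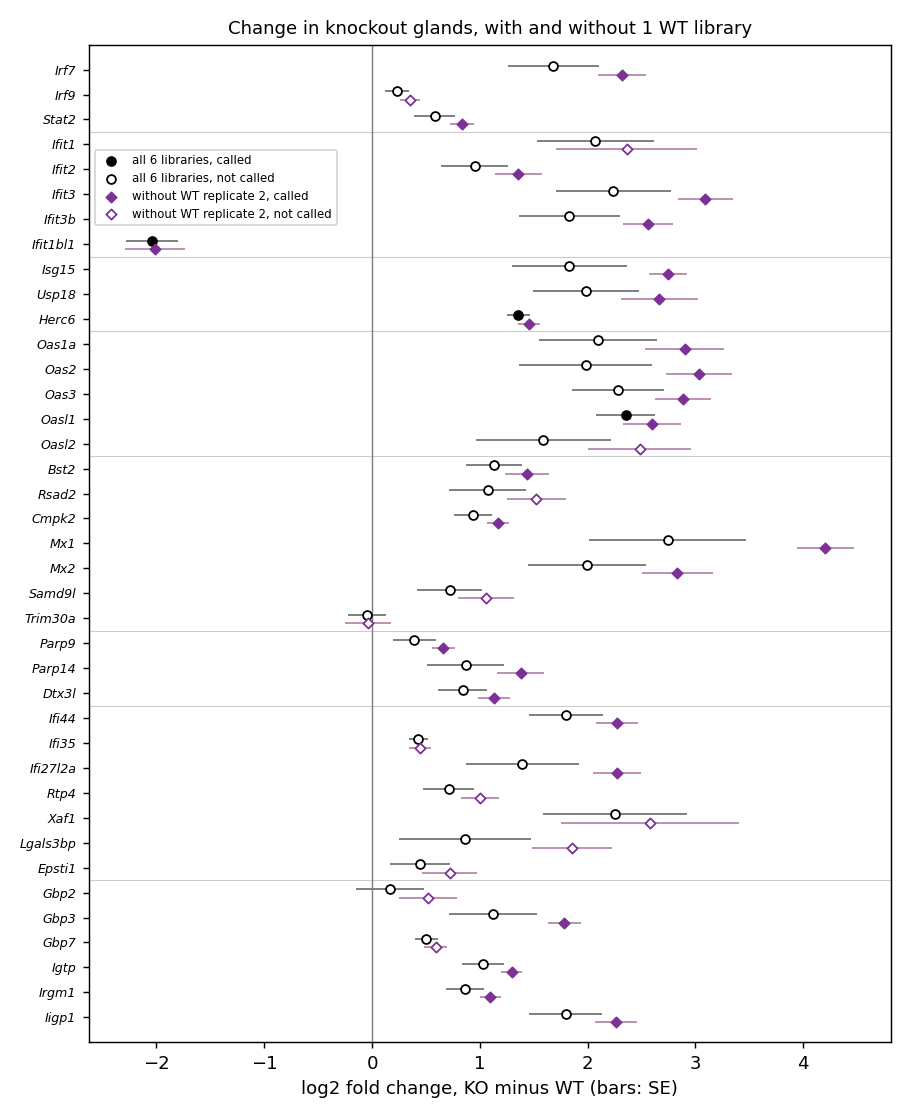
Log2 fold change (KO minus WT) of the 39 members in edgeR's quasi-likelihood fit of all 6 libraries (circles) and without WT replicate 2 (diamonds), with bars of 1 SE, filled where called. Herc6 (1.36), Oasl1 (2.35) and Ifit1bl1 (-2.04) were called with all libraries, and 25 members higher and 1 lower without WT replicate 2. That library was the highest WT library in 36 members, so leaving it out raises their fold changes by selection.

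The interferon ligands themselves were almost undetected. The 21 ligand genes looked up held 54 counts in all WT libraries together and 56 in all KO libraries, none passed the count filter, and Ifnb1 had 0 counts in every library, which allows up to 3 counts a library (counting error only). The receptors and kinases showed no call, and their 8 loci had a median log2 fold change of -0.20, of which 1 was higher and 2 were lower at an unadjusted p under 0.05, and 1 lower with DESeq2. Ifnar2, encoding the signalling chain of the type I receptor and counted with Il10rb, went from 334 ± 22.8 CPM in WT to 232 ± 11.2 CPM in KO, a log2 fold change of -0.53 ± 0.10 (edgeR's adjusted p = 0.0542). The next in order of p were Ifngr2 at -0.38, Ifnlr1 at 1.36 and Ifnar1 at -0.31 (adjusted p = 0.148, 0.167 and 0.507).

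Among transcription factors and inhibitors outside the members, 4 that did not pass the test are given. Irf8 had a log2 fold change of 1.04, Irf5 -0.60, Irf3 -0.19 and Pias1 -0.15, with adjusted p in edgeR's test between 0.211 and 0.406. Irf8 stood at 60.9, 18.6 and 31.7 CPM in WT and at 80.1, 86.0 and 62.2 CPM in KO, so that WT replicate 2, the highest WT library in most members, was the lowest for this factor.

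Among 41 further type I target loci that were tested, 35 had a positive log2 fold change and the median was 0.54. Of them 4 were called higher and 0 lower (1.41% and 0.431% of all tested loci). Eif2ak2 encodes the RNA-activated kinase PKR and stood at 55.5, 52.0 and 55.4 CPM in WT and 111, 106 and 106 CPM in KO. It rose 1.98-fold (log2 fold change 0.99 ± 0.07, edgeR's adjusted p = 0.00787), with WT libraries close together. The RNA sensor gene Ifih1 (1.04, adjusted p = 0.0289), Slfn1 (2.66, adjusted p = 0.0489) and the RNA-editing enzyme gene Adar (0.79, adjusted p = 0.0494) also rose. Ddx60, Zbp1, Oas1c and Isg20 had log2 fold changes of 1.21, 2.07, 1.88 and 1.16 and adjusted p between 0.0540 and 0.0583.

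All 8 interferon GTPase loci outside the members had a positive log2 fold change, with a median of 1.30, and 1 was called. The locus of Gbp10 and Gbp6 rose 2.94-fold, from 25.2 ± 7.83 to 74.2 ± 4.85 CPM (log2 fold change 1.56 ± 0.22, edgeR's adjusted p = 0.0349). The locus of Gbp4, Gbp8 and Gbp9, Gm12250, the locus of Ifi47 and Olfr56 and the locus of Tgtp1 and Tgtp2 had log2 fold changes of 1.59, 2.05, 1.04 and 0.91 (adjusted p from 0.0582 to 0.226). GBPs and TGTPs are multigene families, and reads may be divided among their near-identical copies.

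The other interferon gamma targets were tested at 14 loci, of which 11 had a positive log2 fold change, and their median was 0.41. Tap1, which encodes a subunit of the peptide transporter for antigen presentation, rose from 13.6 to 27.0 CPM (log2 fold change 0.99, edgeR's adjusted p = 0.0385) and was the one call. Nos2 had a log2 fold change of -1.29, Psmb8 0.88, Nlrc5 0.72 and Tap2 0.31 (adjusted p from 0.0540 to 0.211). Of 13 tested NF-kB targets, a readout of inflammatory signalling, 12 had a negative log2 fold change and the median was -0.29. By edgeR 0 were called in either direction, and 5 were lower at an unadjusted p under 0.05 (9.73% of all tested loci). With DESeq2 1 was lower. Tnfaip3, the feedback inhibitor A20, had the lowest adjusted p (0.0800) at a log2 fold change of -0.81.

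Levels of other cell types are given beside these results, and their part in them was not tested. Their counts are to be read against all tested loci. Of those, 12.5% were higher and 9.73% lower at an unadjusted p under 0.05, and edgeR called 1.41% higher and 0.431% lower. DESeq2 called 7.49% of its 21242 loci higher, and 1036 of them lower. With 3 to 11 markers a list, small counts can lie near these shares. The 11 macrophage markers summed to 272, 1105 and 773 CPM in WT and to between 222 and 279 CPM in KO, with 8 of 11 log2 fold changes negative and 0 called by edgeR (1 higher and 3 lower at an unadjusted p under 0.05, 1 each way with DESeq2). WT replicate 2 was thus the highest WT library for macrophage markers as for the members, chiefly through Lyz2 (670 CPM) and Cd68 (169 CPM), whereas the KO libraries were low for the macrophage markers and high for the members. Plasmacytoid dendritic cell markers, of a cell type known for making type I interferon, summed to between 1.07 and 2.36 CPM in WT and between 2.03 and 2.50 CPM in KO. Of the 4 markers 3 had a positive log2 fold change and 1 a negative one, with 0 called by edgeR. At an unadjusted p under 0.05, 1 was higher, and 0 with DESeq2. Their median ratio of the highest to the lowest WT library was 15.8. NK cell markers, of a source of interferon gamma, summed to between 1.38 and 3.29 CPM in WT and between 2.82 and 4.59 CPM in KO, with all 6 log2 fold changes positive, 0 called by edgeR, 2 higher at an unadjusted p under 0.05 and 2 with DESeq2. T cell markers summed to between 1.53 and 4.45 CPM in WT and between 1.24 and 3.31 CPM in KO. None of these lists had a marker at 0 in all WT or all KO libraries. Chromaffin markers had 5 of 5 positive log2 fold changes, with 2 called higher by edgeR, 5 higher at an unadjusted p under 0.05 and 5 with DESeq2. Cortex markers had 6 of 6 negative log2 fold changes with 0 called by edgeR, 3 lower at an unadjusted p under 0.05 and 2 with DESeq2. Endothelial markers summed to between 628 and 718 CPM in WT and between 445 and 549 CPM in KO, with 6 of 6 negative log2 fold changes (median -0.45), 0 called by edgeR, 5 lower at an unadjusted p under 0.05 and 5 with DESeq2. Dendritic cell markers summed to between 32.1 and 71.2 CPM in WT and between 25.1 and 29.6 CPM in KO, with 4 of 5 log2 fold changes negative, 0 called by edgeR, 2 lower at an unadjusted p under 0.05 and 1 with DESeq2. The 4 fibroblast and capsule markers all had negative log2 fold changes, with 0 called by edgeR, 1 lower at an unadjusted p under 0.05 and 0 with DESeq2. B and plasma cell, monocyte and neutrophil, and adipocyte markers had 0 called by edgeR, and 2 loci of these lists were lower at an unadjusted p under 0.05 and 1 with DESeq2. Without KO replicate 3, the library with hepatocyte transcripts, 1 member was called higher and 0 lower. That fit called 26 higher and 11 lower of 21690 tested loci, so few loci of any kind were called in it.

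The direction of the members changed little with the scaling. Scaling by total counts alone moved the median of all tested loci to 0.22 and scaling to equal Rn7sk counts moved it to 0.19, and the members' medians moved with it, to 1.57 and 1.55 for type I targets and 1.16 and 1.14 for GTPases. The share of all calls that were higher in KO was 76.6% with the main scaling, 94.8% with total counts and 94.1% with Rn7sk. Irf7 and Trim30a lie on chromosome 7 with Armc5, 13.0 and 23.7 Mb away, and on a mixed background sequence from the targeted strain can remain linked to the null allele, which was not tested.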

How the data were processed

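Gene counts per locus were deposited by the authors for 6 adrenal gland libraries, beside the authors' log2 CPM values and locus lengths in bases. The submitters' processing notes name Trimmomatic, STAR, Picard, StringTie and edgeR with GRCm38. The counting program, its strand setting and its treatment of reads that match several genes are named in none of the sources used here, so merged, overlapping and near-identical genes are uncertain. The deposited log2 values scaled to Rn7sk entered no test, and 4 columns of the authors' group values were not used.

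Members were matched by symbol to the locus names. Loci with no name (6596, 1.39% to 2.04% of the counts of a library) stayed out of library sizes and tests, which left 53103. The counts as deposited were fitted with edgeR 4.0.16 (R 4.3.3): filterByExpr by group, TMM scaling, robust quasi-likelihood fit, KO against WT with no covariate. Benjamini-Hochberg adjustment ran over 21358 tested loci, and a call is an adjusted p under 0.05. CPM values use the TMM-scaled library sizes, errors of CPM are SDs over 3 libraries, and the SE of a log2 fold change was derived from the F statistic. For spreads and the library plot, 0.01 was added to CPM before the log2. Total counts ran from 70547288 to 130573434 a library, and counting error was not separated from the spread between libraries.

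Each member is named with its own log2 fold change. Counts in every library are given for called members and the 2 most abundant of each role. From each pathway list, called loci and up to 4 others of lowest p are named. One locus of the list of factors and inhibitors is not reported here, nor are that list's counts. The members and all lists were chosen with earlier results of these data known, so their counts are read against the share of all tested loci and no test over a list was run. Promoter windows are RefSeq's (GRCm38.p6), and 9 members had none. The fit was tested on simulated counts. Alternatives were other scalings and filters, a replicate block, leaving out each library, DESeq2 1.42.0 and limma 3.58.1 (trend on the deposited log2 CPM, and voom with quality weights).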

Additional observations from a re-analysis of the deposited data

How the results depend on the processing

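Against 393 loci called in all, 2 type I targets called higher, 1 lower and 0 GTPases, the calls moved with the model and the library left out, while both class medians kept their sign. Total counts alone gave 672 calls in all, and equal Rn7sk counts 711, with 5 type I targets and 2 GTPases higher. Without the count filter 1 GTPase was higher, and at 10 CPM in 3 libraries 0 type I targets were lower, because that filter left 34 of the 39 members to test and removed Ifit1bl1 (and Oasl1) before the test. DESeq2 gave 2626 calls (23 type I targets and 5 GTPases higher, 60.5% of calls higher), limma-trend 975 (8 and 4) and limma-voom 1503 (17 and 4). Leaving out 1 library gave 15 to 644 calls, 0 to 21 type I targets higher, 0 to 1 lower and 0 to 4 GTPases higher. The highest of these came without WT replicate 2, and 20, 15, 22 and 37 calls were left without WT replicate 3 and KO replicates 1, 2 and 3. Without WT replicate 1 the total was 383, 53.0% of it higher. Without WT replicate 1 and KO replicate 3 together there were 16 calls, and 0 type I targets in either direction. Class medians ranged over all alternatives from 1.00 to 1.86 for type I targets and from 0.74 to 1.20 for GTPases. Trim30a (-0.05) turned positive under total counts (0.18), Rn7sk (0.17), 10 CPM (0.027), limma-trend (0.18) and voom (0.053), and ranged from -0.20 to 0.081 when 1 library was left out, positive without WT replicate 1 or KO replicates 1 or 2. Gbp2 (0.17) ranged from -0.11 without WT replicate 3 to 0.52 without WT replicate 2. The cause of these changes was not tested, except that fewer libraries enter the fits that leave one out and fewer loci the fit at 10 CPM. Depth limits the rarest member, Mx1, which had 9 and 11 counts in WT replicates 3 and 1.

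Same-numbered libraries did not deviate together (correlations of -0.15, 0.01 and -0.34 over 9678 loci), so the numbers were not taken to pair them. With the replicate number as a block, 5 loci were called in all, and 0 type I targets higher and 0 lower.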
